A study of Mus musculus with 2 samples.

Results

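Keratinocytes that carried RNA of the contractile genes Tagln and Acta2 and of the matrix gene Olfml2b were examined in developing hair follicles (HFs) of newborn mouse back skin. Droplets were first kept where they held 2000 to 60000 unique molecular identifiers (UMIs, each marking 1 captured RNA molecule), 1000 to 8000 detected genes and at most 20% of UMIs from mitochondrial genes. A kept droplet was counted as a member where Tagln, Acta2 and Olfml2b together reached 5 UMIs, where the basal keratins Krt5 and Krt14 together reached 10 UMIs, and where the fibroblast collagens Col1a1 and Col1a2 together stayed under 5 UMIs. The rule took 764 of 16453 droplets (4.64%). In the WT library it took 423 of 8661 droplets, which is 4.88% with an exact binomial 95% interval of 4.44 to 5.36. In the PADI4 cKO library it took 341 of 7792 droplets, which is 4.38% with an interval of 3.93 to 4.85. Intervals given here cover counting error only.

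The series holds 2 libraries, 1 from mice labelled WT and 1 from mice labelled PADI4 cKO, both from back skin at postnatal day 1 (P1) and both labelled batch 1. The study bred K14-Cre;tdTomato mice, in which the keratin 14 promoter drives Cre and so marks basal keratinocytes and their descendants, to mice with floxed Padi4, which gives a loss of Padi4 in K14-Cre lineages only. The protocol text of both libraries names K14-Cre Padi4 fl/fl mice, so the Padi4 alleles of the WT mice rest on the genotype label. Skin was split with dispase, and tdTomato-positive, DAPI-negative keratinocytes were sorted from the dermal fraction, which keeps the growing HFs. The number of mice behind each library is not stated. In the WT library 128 members carried Xist and no UMI of a Y-linked gene and 239 carried Y-linked UMIs and no Xist. A further 47 WT members (11.1%, against 6.91% of the other WT droplets) carried both, and 9 carried neither. In the PADI4 cKO library 338 of 341 members carried Xist alone. With 1 library per genotype, genotype, animal and library cannot be told apart, and sex can be held equal only in part, by comparing the members with Xist alone. No test over samples was possible.

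Padi4, the deleted gene, was counted 7 times in WT members and 6 times in PADI4 cKO members, which is 0.861 and 0.860 CPM (UMIs of a gene in every 1000000 UMIs of the group). In the other droplets it stood at 0.859 and 0.709 CPM. Reads of this kit lie at the 3′ end of a transcript and the sources used here do not place the floxed exons, so these counts do not check the deletion.

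Tagln encodes transgelin and Acta2 encodes smooth muscle actin, proteins of the actin bundles with which smooth muscle cells, myofibroblasts and myoepithelial cells pull. Many genes of this machinery are switched on by serum response factor (SRF), which binds a short DNA element called the CArG box, with the help of myocardin-related cofactors that respond to the state of actin. Keratinocytes are not muscle, but basal and follicular keratinocytes also build actin bundles, and Olfml2b encodes a secreted protein of the olfactomedin family. Simple epithelial keratins such as Krt8, Krt18 and Krt19 are typical of single-layered epithelia and glands.

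The libraries held 143938990 UMIs (WT) and 143945294 UMIs (PADI4 cKO) over all barcodes. Members were deeper than the other droplets. Their median was 17655 UMIs against 13911.5 in WT, and 18189 against 15600 in PADI4 cKO. With each droplet thinned to 5000 UMIs, members had a median of 2380 genes against 2295 in WT and of 2350.5 against 2297 in PADI4 cKO. The libraries shared 17 droplet barcodes, and 0 of these were members. Scrublet, which scores droplets for likeness to simulated mixtures of cells, called 7.33% of WT members and 5.87% of PADI4 cKO members doublets, against 3.73% and 3.88% of the other droplets. Without called doublets the share of members was 4.71% in WT and 4.29% in PADI4 cKO.

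Tagln gave most of the UMIs by which members were chosen. It was found in 99.5% of WT members and 99.4% of PADI4 cKO members and gave 79.8% and 85.0% of the summed UMIs of Tagln, Acta2 and Olfml2b. Acta2 was found in 52.7% and 36.7% of members, and Olfml2b in 43.0% and 47.8%. All 3 genes were found in 109 WT members (25.8%) and 70 PADI4 cKO members (20.5%), while 129 (30.5%) and 123 (36.1%) had UMIs of Tagln alone. These classes depend on depth, since Olfml2b was found in 21.9% and 24.4% of members once each was thinned to 5000 UMIs, and a count of 0 does not show that a cell lacks the transcript.

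The levels of these genes chose the cells and are given as a description. Tagln (ENSMUSG00000032085, chr9:45929619-45936058, minus strand, mm10) stood at 1723 CPM in WT members and 1904 CPM in PADI4 cKO members, against 12.5 and 10.5 CPM in the other droplets. Acta2 (ENSMUSG00000035783, chr19:34241090-34255590, minus strand) stood at 381 and 260 CPM against 3.90 and 6.62 CPM. Olfml2b (ENSMUSG00000038463, chr1:170644532-170682789, plus strand) stood at 53.4 and 74.3 CPM against 1.02 and 0.749 CPM. Of the other droplets, 91.8% in WT and 92.9% in PADI4 cKO held no UMI of the 3 genes. In near-empty droplets of up to 100 UMIs, which sample RNA outside cells, Tagln was at 141 CPM in WT and 129 CPM in PADI4 cKO.

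Within members the summed UMIs of the 3 genes had a median of 25 in WT, with quartiles at 10.5 and 59 and a highest value of 269. In PADI4 cKO the median was 29, with quartiles at 11 and 65 and a highest value of 252. Just outside the limit, 33 WT droplets and 37 PADI4 cKO droplets had a sum of 4, and just inside it, 23 and 22 droplets had a sum of 5. The keratin limit mattered more than the collagen limit. Of all droplets with 5 or more contractile UMIs (466 in WT, 359 in PADI4 cKO), 42 and 13 were left out for keratin alone, 1 and 3 for both limits, and 0 and 2 for collagen alone. Those left out for keratin alone were shallower, at a median of 7667 and 9774 UMIs against 17655 and 18189 in members. A limit set as a count depends on depth, so these droplets need not be poor in keratin. Among members, 375 of 423 and 304 of 341 held no collagen UMI at all.

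**Figure D1:**
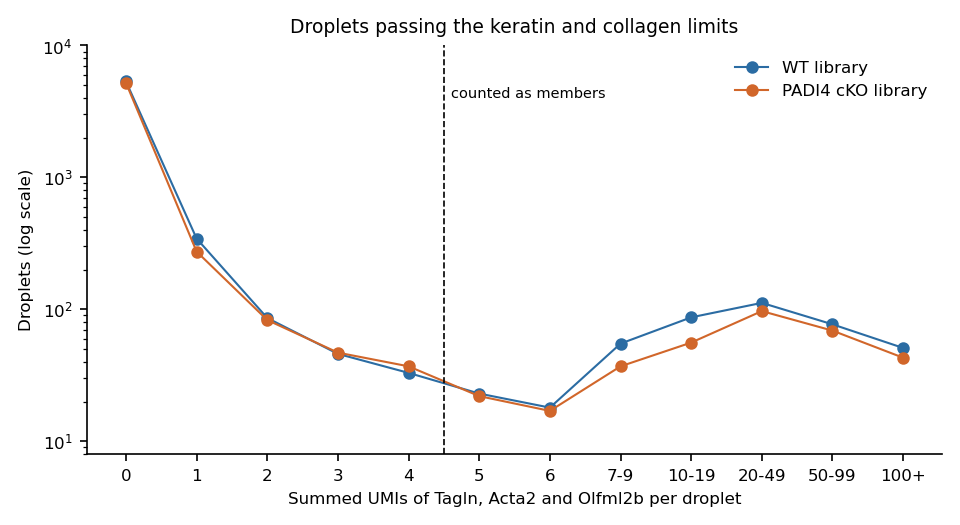
Droplets of each library (vertical axis, log scale) by the summed UMIs of Tagln, Acta2 and Olfml2b in the droplet (horizontal axis, in bins that widen from a sum of 7), for droplets that pass the keratin and collagen limits. The dashed line marks the limit of 5 UMIs; both libraries fall to 18 and 17 droplets at a sum of 6, and the bins beyond it cover more values each.

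Contractile genes that the rule did not use were also higher in members, in both libraries. A gene was compared where the mean of the members' and the other droplets' CPM reached 10 in both libraries, and it was called higher or lower where it differed at least 2-fold in the same direction in both. Of 8907 genes compared, 433 were higher (4.86%) and 281 were lower (3.15%), and the median log2 ratio over all genes was -0.05 in WT and -0.06 in PADI4 cKO. Of 27 genes of the contractile machinery, 22 were compared, 20 were higher, 1 was lower and 1 was neither. Their median log2 ratio was 1.71 in WT and 1.75 in PADI4 cKO, and their summed level was 18824 and 19749 CPM in members against 6608 and 6636 CPM in other droplets. The same RNA chose the cells and gave these values, so they describe the members and test nothing. A gene that is nearly absent from the other droplets, such as Cnn1, passes the limit of 10 CPM through the members alone and then has to be called higher.

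Myl9, the regulatory light chain of smooth muscle and nonmuscle myosin, stood at 470 CPM in WT members and 490 CPM in PADI4 cKO members, against 18.7 and 18.4 CPM in the other droplets. It was found in 402 of 423 WT members and 330 of 341 PADI4 cKO members, and in 11.2% and 13.1% of other droplets, and its log2 ratio was 4.65 (95% interval 4.58 to 4.73) and 4.74 (4.66 to 4.81). Tpm1, a tropomyosin that lies along actin filaments, stood at 1536 and 1537 CPM against 126 and 103 CPM, a log2 ratio of 3.61 and 3.89. Nearly every member carried Tpm1, with 422 of 423 WT members and 341 of 341 PADI4 cKO members positive. Cnn1, the smooth muscle calponin, stood at 31.1 and 43.3 CPM against 1.02 and 1.36 CPM. Unlike Myl9 and Tpm1 it was found in a minority of members, 26.0% in WT and 29.3% in PADI4 cKO, and in PADI4 cKO its 5 highest cells held 30.1% of its UMIs.

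Among the other genes called higher, ratios were smaller. Zyxin (Zyx), which sits where actin bundles meet adhesions, stood at 238 and 243 CPM against 25.6 and 23.2 CPM. Caldesmon (Cald1), an actin and tropomyosin binding protein, stood at 1315 and 1364 CPM against 228 and 206 CPM. Smoothelin (Smtn) stood at 160 and 178 CPM against 26.4 and 27.5 CPM. The cytoplasmic actins, which all cells make, were at the low end of the called genes. Actb stood at 5804 and 6352 CPM against 2819 and 2941 CPM, a log2 ratio of 1.04 and 1.11. Actn4, a nonmuscle actinin, was neither, with a log2 ratio of 0.54 and 0.61, and Synpo2, an actin bundling protein, was lower at 20.5 and 22.8 CPM against 90.3 and 130 CPM. Myh11 and Des, which mark smooth muscle itself, were too low to be compared, at 1.84 and 8.17 CPM (Myh11) and 0.369 and 0.143 CPM (Des) in members. Without the 14 members of cluster 20, a small set described further on, Myh11 was at 0.634 and 0.723 CPM.

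Since many contractile genes carry CArG boxes, the 250 bases before the RefSeq transcription start (build GRCm38.p6) were searched for this motif of 10 bases, whose pattern is the same on both strands. A full match lay in 482 of 32851 windows (1.47%), and a match with at most 1 base off lay in 6117 windows (18.6%). Of the contractile machinery genes, 24 of 27 were in the table, with 27 windows, and a gene counted where any of its windows matched. The shares above count windows, so the measures differ. Of these genes, 5 had a full match (Myl9, Cnn2, Myl6, Actg1 and Vcl) and 9 had a match with at most 1 base off. The stretches that hold these matches are shown because the genes were higher in members, with matches in capitals.
Myl9, chr2:156775214-156775413, plus strand, bases 250 to 51 before the start: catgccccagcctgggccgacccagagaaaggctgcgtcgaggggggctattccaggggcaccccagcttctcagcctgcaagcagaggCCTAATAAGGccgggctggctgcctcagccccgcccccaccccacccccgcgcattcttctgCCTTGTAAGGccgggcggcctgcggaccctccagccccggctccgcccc
Cnn2, chr10:79988524-79988573, plus strand: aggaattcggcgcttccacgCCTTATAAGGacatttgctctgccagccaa
Myl6, chr10:128493040-128493069, minus strand: gctcttacttCCTTATATGGgcaggaccta
Actg1, chr11:120348556-120348605, minus strand: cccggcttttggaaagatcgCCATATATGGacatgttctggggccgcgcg
Vcl, chr14:20929151-20929200, plus strand: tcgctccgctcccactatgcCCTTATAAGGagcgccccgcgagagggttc
Acta2, chr19:34255438-34255467, minus strand: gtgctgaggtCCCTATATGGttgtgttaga
Acta2, chr19:34255388-34255417, minus strand: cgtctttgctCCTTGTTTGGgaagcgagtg
In Myl9 the full match begins 161 bases before the start and a match 1 base off begins 99 bases before it. The matches of Cnn2, Myl6, Actg1 and Vcl are full and begin 56, 50, 90 and 227 bases before the start. Both matches of Acta2 are 1 base off and begin 84 and 34 bases before the RefSeq start, inside the first exon of the longer GENCODE vM21 transcript. The Myl6 stretch likewise lies inside the gene as GENCODE vM21 draws it (chr10:128490860-128494145), downstream of the start of most of its transcripts. Calponin 2 (Cnn2) stood at 155 and 161 CPM in members against 27.2 and 24.1 CPM, and the myosin light chain Myl6 at 2152 and 2154 CPM against 621 and 589 CPM. Actg1, the other cytoplasmic actin, stood at 3181 and 3326 CPM against 1184 and 1169 CPM, and vinculin (Vcl), which ties actin to adhesions, at 229 and 226 CPM against 74.0 and 74.4 CPM. Tpm1 and Cald1 had matches 1 base off only. Of the 20 genes with the highest ratios, 11 were in the table, with 16 windows. Of these 11 genes, 1 had a full match and 4 had a match with at most 1 base off. A match describes these letters and is not evidence of binding.

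**Figure D2:**
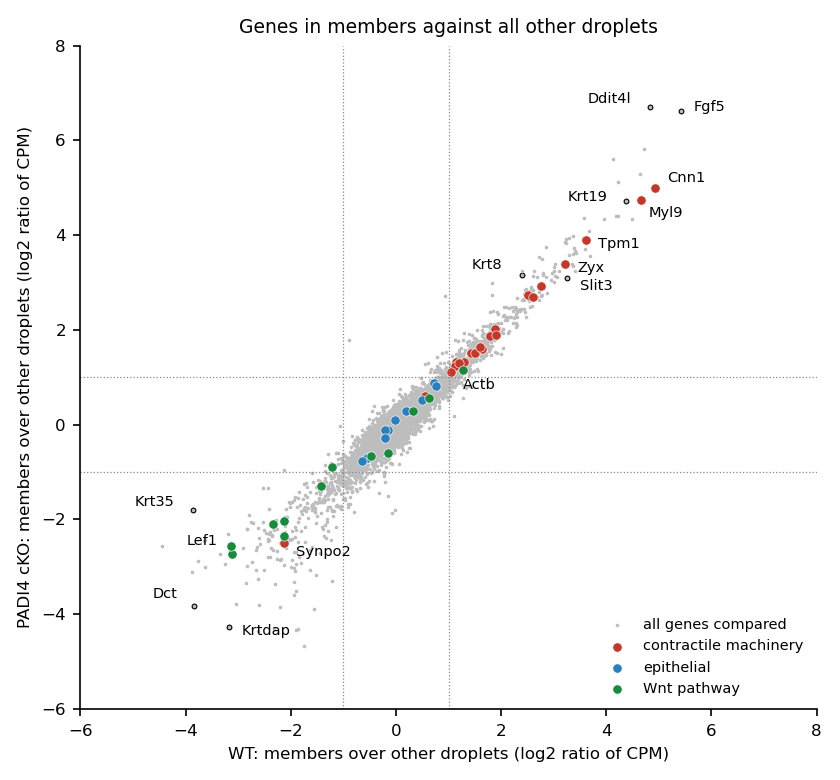
Each point is a gene compared between members and all other droplets, with the log2 ratio of CPM in WT on the horizontal axis and in PADI4 cKO on the vertical axis; dotted lines mark 2-fold. Contractile machinery genes (red) lie past 2-fold at the upper right apart from Actn4 and Synpo2, epithelial genes (blue) lie near 0, and the Wnt pathway genes (green) include 6 at the lower left and 1 at the upper right.

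Of the 20 genes with the highest ratios, some encode matrix and adhesion proteins, and others encode signalling proteins or enzymes. Fgf5, the growth factor known for ending the hair growth phase, stood at 34.8 and 28.4 CPM in members against 0.810 and 0.287 CPM, a log2 ratio of 5.42 (5.09 to 5.77) in WT and 6.61 (6.11 to 7.18) in PADI4 cKO. It was found in 31.4% and 31.1% of members and in 0.862% and 0.389% of the other droplets. Anxa3, an annexin, stood at 113 and 118 CPM against 4.32 and 2.10 CPM. Ddit4l, a relative of the mTOR inhibitor Ddit4, stood at 46.2 and 52.5 CPM against 1.62 and 0.502 CPM. Matrix genes in this set were Fbln5 (fibulin, an elastic fibre protein, 30.6 and 31.1 CPM against 2.42 and 1.84), Tinagl1 (46.4 and 46.6 CPM against 2.48 and 1.34) and the matrix protease Adamts5 (51.8 and 41.0 CPM against 4.27 and 3.14).

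Ret, the receptor tyrosine kinase for the GDNF family, stood at 78.3 and 90.0 CPM in members against 6.06 and 7.69 CPM, a log2 ratio of 3.69 and 3.55. It was found in 66.2% and 71.8% of members. Tgfb1i1, an adhesion protein also called Hic-5, stood at 39.8 and 48.7 CPM against 3.25 and 3.44 CPM. The glycoprotein Thy1 stood at 23.9 and 31.7 CPM against 1.99 and 1.53 CPM, and Cdo1, which oxidizes cysteine, stood at 54.1 and 52.9 CPM against 3.47 and 2.61 CPM. The remaining genes of the 20 were Cnn1, Myl9, Tpm1, Krt19, Ggt1, Cfap299, Pid1, Dapk2, Unc13c and Lrrc75b. Slit3, a secreted guidance protein, was not among the 20 but was abundant, at 1028 and 1215 CPM against 108 and 142 CPM, with a log2 ratio of 3.25 and 3.10.

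Of the keratins used by the rule, Krt5 stood at 1287 and 1315 CPM in members against 1380 and 1230 CPM, and Krt14 at 682 and 581 CPM against 1227 and 820 CPM, a log2 ratio of -0.85 (-0.89 to -0.81) and -0.50 (-0.54 to -0.45). Of 10 epithelial genes outside the rule, all 10 were compared and were within 2-fold of the other droplets. Most genes were, since 4.86% of all genes compared were higher and 3.15% were lower. The epithelial list summed to 5769 and 5654 CPM in members against 4598 and 4273 CPM, so the members carried these transcripts at a level like that of the other keratinocytes. Krt17, a follicular keratin, stood at 2830 and 2817 CPM against 1674 and 1590 CPM. Epcam, an epithelial adhesion protein, stood at 139 and 102 CPM against 218 and 175 CPM, and Trp63, the master factor of stratified epithelium, at 526 and 515 CPM.

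Markers of other contractile cells were mixed in the members, with some higher than in the other droplets and many low or absent. Of 12 smooth muscle and pericyte genes, 3 were compared and 3 were higher (Cnn1, Mcam and Cspg4), and the list summed to 241 and 272 CPM in members against 73.9 and 71.1 CPM. Cnn1 reached the limit of 10 CPM through the members alone and so had to be called higher. Cspg4 was the most abundant gene of the list, at 136 and 139 CPM. The pericyte genes Rgs5, Kcnj8, Abcc9 and Higd1b were at 0 in both libraries, and Pdgfrb was at 0 in WT. Of 8 fibroblast genes, 2 were compared, with Fbn1 higher (21.8 and 23.2 CPM against 2.33 and 2.31) and Postn lower (10.5 and 6.74 CPM against 55.3 and 46.8). Fbn1 likewise reached the limit through the members alone. The fibroblast list summed to 33.4 and 30.4 CPM against 73.2 and 66.7 CPM, with Fbn1 most abundant, Pdgfra, Dpt and Twist2 at 0 in both libraries, and Col3a1 at 0.615 and 0 CPM. Immune genes summed to 0.369 and 0.287 CPM, with 4 of 5 at 0.

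Dermal papilla and sheath genes summed to 9.96 and 11.6 CPM against 15.7 and 19.5 CPM, with Hhip most abundant. Endothelial genes summed to 2.09 and 1.29 CPM, Schwann cell genes to 5.66 and 2.87 CPM, and Merkel cell genes to 5.29 and 7.02 CPM, and none of these 3 lists had a gene that could be compared. Of 5 melanocyte genes, Dct was lower (2.58 and 1.72 CPM against 37.8 and 25.6) and Mitf was neither.

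Simple epithelial keratins were carried by part of the members. Of 6 genes, Krt7, Krt8 and Krt19 were compared and were higher. Krt8 and Krt19 reached the limit of 10 CPM through the members alone and so had to be called higher, and their count supports nothing. The list summed to 123 and 118 CPM against 19.3 and 13.6 CPM. Krt19 was the most abundant, at 59.9 and 64.8 CPM against 2.87 and 2.46 CPM, and was found in 48.2% of WT members and 50.7% of PADI4 cKO members. Its log2 ratio was 4.38 (4.18 to 4.58) and 4.72 (4.51 to 4.94). Thinned to 5000 UMIs per droplet, Krt19 was found in 23.8% and 27.4% of members against 1.16% and 1.03% of the other droplets.

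Krt8 (chr15:101996698-102004482) stood at 22.4 and 22.5 CPM in members against 4.28 and 2.54 CPM, a log2 ratio of 2.39 (2.14 to 2.63) and 3.15 (2.86 to 3.43). It was found in 17.5% and 16.7% of members and in 2.97% and 2.13% of the other droplets, and after thinning in 9.03% and 7.65% against 1.79% and 1.17%. Its partner Krt18 (chr15:102028180-102032027) stood at 11.6 and 6.31 CPM against 1.77 and 1.42 CPM and was found in 8.75% and 8.21% of members and in 0.971% and 1.11% of the other droplets. In the near-empty droplets it was at 5.74 and 5.06 CPM, close to its level in PADI4 cKO members. Krt18 rested on few cells, since 5 WT members held 51.1% of its UMIs. Most members had no UMI of Krt8 or Krt18, which at these levels and this depth does not show that they lacked the transcripts.

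Genes that mark HF compartments went different ways. Of 5 outer root sheath (ORS) genes, Tbx1 was higher (225 and 226 CPM against 87.7 and 84.0), Nfatc1 was lower (21.6 and 13.2 CPM against 94.4 and 103) and 3 were neither. Krt15, a keratin of basal follicular cells, stood at 1320 and 1439 CPM against 759 and 659 CPM, and Sox9, the ORS transcription factor, at 140 and 102 CPM against 219 and 203 CPM. Of 7 lower proximal cup (LPC) genes, 3 were compared. Lgr5, a Wnt coreceptor of follicular progenitors, was higher at 522 and 589 CPM against 238 and 265 CPM, Edar was lower, and Ptch1 was neither at 608 and 650 CPM against 449 and 528 CPM.

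Genes of the germinative layer (GL) and of differentiated lineages were lower or did not pass 2-fold. Of 8 GL and matrix genes, Shh and Lef1 were lower and 6 were neither, and Lef1, a Wnt transcription factor of hair shaft progenitors, stood at 53.1 and 71.1 CPM against 460 and 469 CPM. Of 8 inner root sheath (IRS) genes, 6 were compared and 4 were lower (Krt71, Krt27, Krt28 and Krt73). In the cortex and medulla lists 1 gene each could be compared and was lower, Krt35 and Mt4. The upper HF, interfollicular epidermis and sebaceous gland lists had 1 lower gene each (Krt79, Krtdap and Pparg) and 0 higher. Krt75 of the companion layer was neither, at 32.5 and 36.8 CPM against 40.6 and 31.1 CPM, but more of the members carried it, 34.3% and 41.1% against 11.5% and 12.1% of the other droplets.

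Other keratinocytes were set beside the members in 3 groups, chosen by Krt75 for the companion layer (63 and 43 droplets), by Krt15 and Sox9 for the ORS (3901 and 3614 droplets) and by Krtap8-1 and Mt4 for the medulla (688 and 757 droplets). Tpm1 stood at 171 and 149 CPM in ORS-rule droplets and 187 and 316 CPM in companion-rule droplets. Myl9 stood at 27.8 and 31.2 CPM in the ORS-rule droplets, below its 470 and 490 CPM in members. Krt15 did not set members apart from the ORS-rule droplets, which were chosen by it and stood at 1509 and 1390 CPM. Lgr5 stood at 404 and 479 CPM there against 522 and 589 CPM in members.

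**Figure D3:**
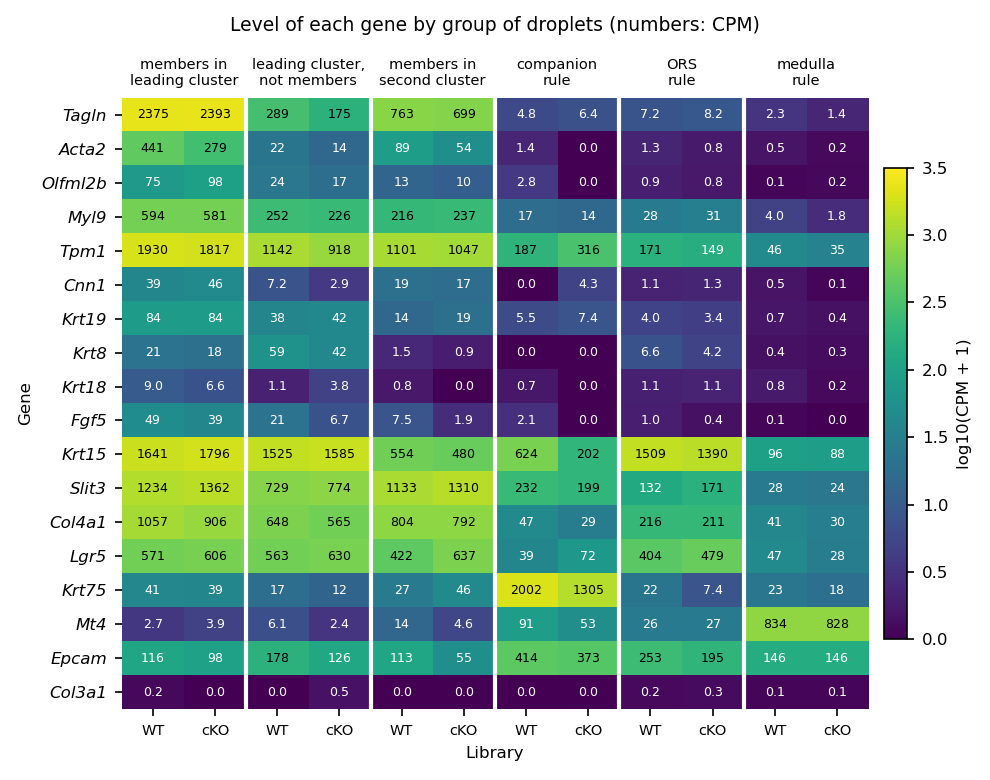
Level of each gene (rows, CPM printed in each cell, colour on a log10 scale of CPM + 1) in groups of droplets of each library (columns). Contractile genes, Krt19, Slit3 and Col4a1 are higher in the 2 member groups than in the companion, ORS and medulla groups, while Krt15 reaches 1509 and 1390 CPM in the ORS group, Krt75 is highest in the companion group and Mt4 in the medulla group, which were chosen by these genes.

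Genes of the cell's contact with the basement membrane were in part higher. Of 15 genes, 14 were compared, 4 were higher and 1 was lower. Col4a1 and Col4a2, the main collagen chains of the basement membrane, stood at 906 and 814 CPM against 165 and 156 CPM, and at 467 and 411 CPM against 94.7 and 95.2 CPM. Lama5, a laminin chain, and Itga3, a laminin receptor subunit, were the other higher genes, at 209 and 201 CPM (Lama5) and 91.6 and 89.0 CPM (Itga3) in members. The hemidesmosomal collagen Col17a1 was lower, at 51.6 and 42.4 CPM against 142 and 112 CPM. Of 11 desmosome genes, 8 were compared, 0 were higher and 2 were lower (Dsg3 and Pkp1).

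Of 11 genes for SRF, its cofactors, YAP and their targets, 9 were compared and only Ccn2, a secreted matricellular protein, was higher, at 94.4 and 97.0 CPM against 24.6 and 22.0 CPM. Srf stood at 20.4 and 15.9 CPM against 8.66 and 8.54 CPM and its cofactor gene Mrtfa at 247 and 266 CPM against 134 and 139 CPM, both short of 2-fold in at least 1 library. Myocd, the muscle cofactor, was not detected in members, and at 3 UMIs the limit of a count of 0 is 0.369 CPM in WT and 0.430 CPM in PADI4 cKO. Of 9 mesenchymal transition genes, 3 were compared and 0 passed 2-fold, with Vim at 11.9 and 7.88 CPM against 18.8 and 16.1 CPM.

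Of 15 Wnt pathway genes, 12 were compared, 6 were lower (Wnt4, Wnt5a, Wnt10b, Axin2, Lef1 and Sostdc1), 1 was higher and 5 were neither. The median log2 ratio was -1.33 in WT and -1.09 in PADI4 cKO, and the summed level of the list differed by -0.36 and -0.37. Axin2, a target gene read as a sign of Wnt signalling, stood at 9.59 and 8.31 CPM against 42.2 and 42.6 CPM. The higher gene was Tcf7l1, a repressor of Wnt targets known from HF stem cells, at 467 and 413 CPM against 193 and 186 CPM.

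Of 11 BMP pathway genes, 8 were compared and 4 were lower (Bmp2, Bmp4, Bmp7 and the pseudoreceptor Bambi), with Bmp4 at 5.53 and 11.9 CPM against 51.4 and 59.1 CPM. Of 8 hedgehog pathway genes, 7 were compared and only the ligand Shh was lower, at 7.50 and 10.8 CPM against 56.9 and 65.5 CPM. Of 9 Notch pathway genes, 6 were compared and 2 were lower, the receptor gene Notch1 and the target gene Nrarp.

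Of 15 TGF-beta pathway genes, 13 were compared, the receptor Tgfbr2 was higher and Tgfb2, Tgfb3, Smad3 and Tgfbi were lower. Of 13 FGF ligands and receptors, 5 were compared and Fgf2 was higher beside Fgf5, at 51.8 and 52.0 CPM against 19.6 and 23.2 CPM. Fgf5 reached the limit of 10 CPM through the members alone and so had to be called higher. The olfactomedin family was represented by Olfml2b, which gave 93.9% and 96.1% of the family's UMIs in members, and no other gene of the family could be compared.

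The 10 genes with the lowest ratios were Dct, Krtdap, Cldn10, Dcn, Mt4, Mylip, Sat1, Slc16a10, Tnfrsf19 and Sox21. Sat1, the rate-limiting enzyme of polyamine breakdown, stood at 16.4 and 28.7 CPM in members against 224 and 211 CPM. Dcn, which encodes the proteoglycan decorin, stood at 86.1 and 54.9 CPM against 713 and 751 CPM. Dcn was also high outside cells, at 680 and 666 CPM in the near-empty droplets. Tnfrsf19, a receptor of the TNF family, stood at 28.4 and 27.5 CPM against 203 and 219 CPM.

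Of 17 S phase genes compared, 0 passed 2-fold, and of 15 G2 and mitosis genes compared, 0 passed 2-fold. Few genes did, since 4.86% of all genes compared were higher and 3.15% were lower. The summed level of the G2 and mitosis genes was lower in members of both libraries, by a log2 ratio of -0.34 (-0.36 to -0.32) in WT and -0.46 (-0.48 to -0.43) in PADI4 cKO. That of the S phase genes was about level, with a log2 ratio of -0.03 in WT and 0.01 in PADI4 cKO. Mki67, a proliferation marker, stood at 372 and 282 CPM against 493 and 408 CPM. By score, 37.6% of WT members and 50.1% of PADI4 cKO members were placed in S phase, against 31.8% and 39.8% of the other droplets, and 24.1% and 18.2% were placed in G2/M, against 30.3% and 24.9%. These phase calls are not corrected for depth or RNA outside cells. Of 11 immediate early genes, which respond to tissue dissociation among other stimuli, Ier3 was higher, Fosb was lower and 9 were neither.

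Of the Padi genes, Padi3 was the most abundant in members, at 16.0 and 16.6 CPM against 4.03 and 2.50 CPM, with log2 ratios of 1.99 (1.70 to 2.27) and 2.74 (2.42 to 3.05). It was found in 22.9% and 22.6% of members. Its mean level missed the limit of 10 CPM over both groups in PADI4 cKO, so it was not among the genes compared. Padi1 gave 4 and 1 UMIs in members and Padi2 gave 0 in both libraries. PADI3 citrullinates proteins of the hair shaft and IRS, whose keratins were low in these cells.

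To see whether cells chosen by these genes lay together by the rest of their RNA, all droplets were clustered without the 7 genes of the rule. Of 23 clusters, cluster 15 held 554 of the 764 members (72.5%, interval 69.2 to 75.7), 304 from WT and 250 from PADI4 cKO. Members were 59.6% of its 930 droplets. Its leading genes by fold were Fgf5, Matn4, Dhrs9, Slc7a11 and Ddit4l. The next was cluster 9, led by Hbb-bs, Plcxd3, Phactr1 and Slit3, with 94 members among its 856 droplets, and the remaining members were spread over 13 clusters with 38 or fewer each.

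Members outside cluster 15 had more called doublets. Scrublet called 0.987% of WT members and 1.60% of PADI4 cKO members in cluster 15 doublets, against 23.1% and 4.76% of the members in cluster 9 and 23.9% and 28.6% of those in other clusters. Tagln stood at 2375 and 2393 CPM in the members of cluster 15, at 763 and 699 CPM in those of cluster 9 and at 519 and 1109 CPM in those elsewhere. Slit3, in contrast, stood at 1234 and 1362 CPM in the members of cluster 15 and at 1133 and 1310 CPM in those of cluster 9. Fgf5 was concentrated in cluster 15, at 49.4 and 38.8 CPM in its members against 7.50 and 1.85 CPM in those of cluster 9.

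**Figure D4:**
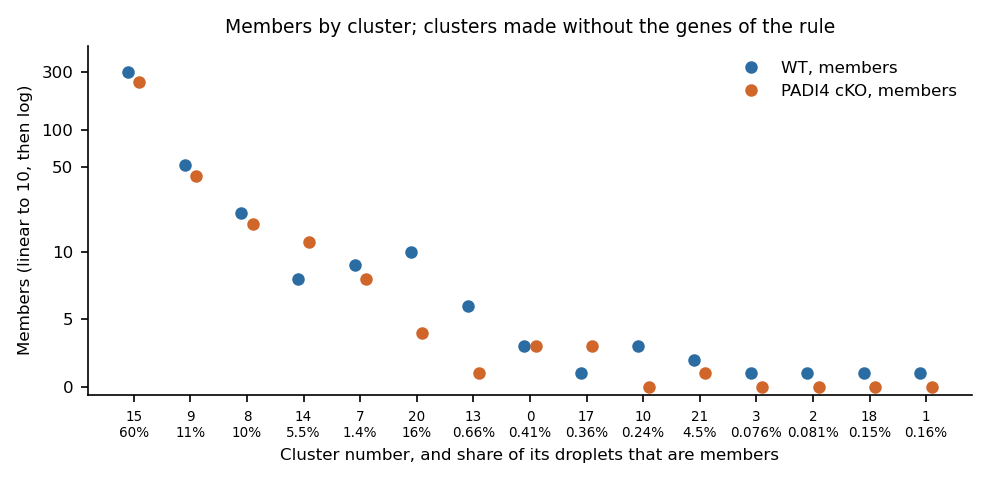
Number of members (vertical axis, linear to 10 and log beyond) in each cluster that held any, for WT (blue) and PADI4 cKO (orange); below each cluster number stands the share of its droplets that were members. Cluster 15 held 304 and 250 members, and 8 further clusters held none.

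Within cluster 15 the rule split cells that had much in common. In the droplets of this cluster that were not members, Krt15 stood at 1525 and 1585 CPM against 1641 and 1796 CPM in the members, and Lgr5 at 563 and 630 CPM against 571 and 606 CPM. Tpm1 and Myl9 were high in both but higher in members, by a log2 ratio of 0.76 and 0.99 (Tpm1) and of 1.24 and 1.36 (Myl9). Krt8 went the other way, at 20.8 and 18.4 CPM in the members of cluster 15 against 59.4 and 42.0 CPM in its other droplets, a log2 ratio of -1.51 and -1.19. Its partner Krt18 did not share this, at 9.02 CPM in the members of cluster 15 against 1.08 CPM in its other droplets in WT, a log2 ratio of 2.86 (1.43 to 5.39), and at 6.65 against 3.82 CPM in PADI4 cKO, a ratio of 0.73 (-0.35 to 2.13). Sox9 was also lower in its members, by a log2 ratio of -0.97 and -1.32. Krt8 was thus higher in members than over all other droplets but lower than in the neighbouring droplets of their own cluster.

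A small set stood apart from all other members. Cluster 20, led by Smr3a, Pax9, Dcpp3 and Prrx1, held 10 WT members and 4 PADI4 cKO members, none of them called a doublet. Its next leading genes were Dpt and Col3a1, and over all its 88 droplets 8 of 8 fibroblast markers and 7 of 12 smooth muscle and pericyte markers were raised, although its members held no Col3a1 UMI. The 10 WT cells carried all 340 UMIs of the muscarinic receptor gene Chrm3 found in WT members and all 175 of the neurotrophin receptor gene Ntrk3. They also held 668 Acta2 UMIs (21.5% of those in WT members, 18 to 144 per cell with a median of 65.5), 45 Krt18 UMIs (47.9%) and 50 Krt8 UMIs (27.5%), but no UMI of Olfml2b, Fgf5, Ret or Col3a1. The combined Krt8 and Krt18 ratio in WT was 2.49 on the log2 scale with these cells and 1.93 without them.

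The 4 PADI4 cKO cells of cluster 20 held few of these receptor transcripts. Together they held 369 Acta2 UMIs (20.3% of those in PADI4 cKO members), 52 of the smooth muscle myosin Myh11 (91.2%), 112 of the smooth muscle actin Actg2 (72.7%), 62 of Cnn1 (20.5%) and 19 of the oxytocin receptor gene Oxtr (82.6%), with 1 UMI of Chrm3 and none of Krt19, Slit3 or Col3a1. The cells were not alike, since Myh11 was at 0, 4, 35 and 13 UMIs and Oxtr at 0, 1, 6 and 12 UMIs in them, so that 2 of the 4 carried most of both. These 14 cells were singled out after their values were seen. They hold a large part of Acta2, Actg2 and Myh11, and in WT of Krt18, in few droplets.

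Levels followed the summed UMIs of Tagln, Acta2 and Olfml2b on both sides of the limit. Tpm1 stood at 106 and 83.4 CPM in keratin-positive droplets with a sum of 0, at 770 and 960 CPM with a sum of 3 or 4, at 984 and 921 CPM with a sum of 5 to 9, and at 2073 and 1990 CPM from 50. Myl9 went from 13.1 and 13.8 CPM at a sum of 0 to 781 and 759 CPM from 50. The share of droplets in cluster 15 went with it, from 1.54% and 1.15% at a sum of 0 to 88.3% and 87.5% from 50. The limit of 5 UMIs therefore cuts a range. In PADI4 cKO the intervals of Tpm1, Myl9 and Krt19 overlapped between a sum of 3 or 4 and one of 5 to 9. In WT those of Myl9 overlapped, while Tpm1 was at 770 (728 to 814) and 984 (939 to 1030) CPM and Krt19 at 18.0 (12.1 to 25.9) and 41.9 (33.0 to 52.3) CPM.

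Krt8 stood at 3.85 and 2.13 CPM with a sum of 0, at 25.5 and 10.5 CPM with a sum of 5 to 9 and at 29.5 and 24.4 CPM from 50. Between these last bins it did not rise steadily. In WT it was at 16.5 CPM with a sum of 10 to 19 and at 15.8 CPM with 20 to 49. In PADI4 cKO it was at 17.9 and 32.3 CPM in these bins. Across members, Pearson's r of normalized values with Tagln was 0.65 and 0.70 for Myl9, 0.59 and 0.59 for Tpm1, 0.49 and 0.46 for Acta2, and -0.10 and 0.05 for Krt8, over 423 and 341 cells that share 1 library each. These correlations describe cells within a library and carry no test.

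**Figure D5:**
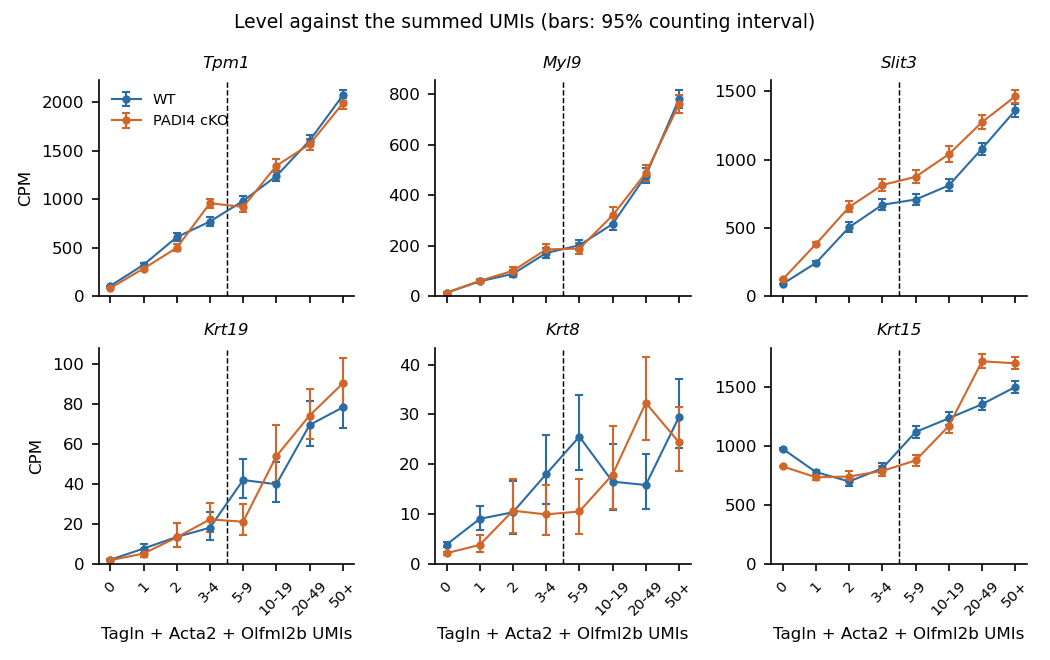
Level of 6 genes (vertical axes, CPM) in droplets that pass the keratin and collagen limits, by the summed UMIs of Tagln, Acta2 and Olfml2b (horizontal axis, bins), for WT (blue) and PADI4 cKO (orange); bars are 95% counting intervals and the dashed line marks the limit of 5 UMIs. Tpm1, Myl9, Slit3 and Krt19 are higher in the bin from 50 than in every bin below the line, while Krt8 has wide intervals and Krt15 stays between 698 and 1716 CPM.

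Over 39 points, each the cells of 1 cluster in 1 library, the genes whose level was ranked most like the summed level of Tagln, Acta2 and Olfml2b were Krt19 (Spearman's rho 0.879), Anxa3 (0.849), Tpm1 (0.823), Thy1 (0.821), Adamts5 (0.817), Myl9 (0.800), 9630014M24Rik (0.799), Unc13c (0.798), Rap1gap2 (0.795) and Slit3 (0.790), among 11774 genes. Points of the same library share depth and RNA outside cells, so these values are a description. Of these genes, 7 were also among the 20 with the highest ratios.

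Between the genotypes, most genes of the members, contractile genes included, stayed within a log2 ratio of 0.5, while Acta2 did not. Of 9882 genes with at least 100 UMIs in members, 112 (1.13%) had a log2 ratio of PADI4 cKO over WT of at least 0.5 and 287 (2.9%) of at most -0.5. Among members with Xist alone, which leaves out the Y-carrying cells of WT, 316 of 8724 genes were higher and 280 lower. The higher count thus rose from 112, with 128 WT members left, while the lower count stayed close to 287. The lost excess of lower genes therefore says nothing on the lower genes themselves. Of the contractile machinery, 23 genes had enough UMIs, 1 was past 0.5 (Actg2) and 0 were past -0.5, with a median of 0.06. Actg2 had 55 UMIs in WT members and 154 in PADI4 cKO members, a log2 ratio of 1.70 (1.25 to 2.18), and cluster 20 held 52.7% and 72.7% of them. Without those cells Actg2 was at 26 and 42 UMIs, too few for the comparison, of which 1 PADI4 cKO cell held 35. Tpm1 differed by 0.00 (-0.04 to 0.04) and Myl9 by 0.06 (-0.01 to 0.13), and among members with Xist alone by 0.01 and -0.17. Krt8 differed by 0.01 (-0.31 to 0.32) over all members and by 0.34 (-0.00 to 0.69) without cluster 20. Among members with Xist alone it differed by -0.63 (-1.03 to -0.21), from 78 UMIs in WT and 157 in PADI4 cKO. Of these UMIs, 28 and 86 lay in the cluster that held most members, where the Krt8 ratio was -0.14 (-0.75 to 0.55). That interval includes both 0 and -0.63, and most of the WT UMIs lay outside that cluster. Krt19 differed by 0.11 (-0.07 to 0.30), and by -0.17 (-0.44 to 0.10) among members with Xist alone.

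Acta2 was lower in PADI4 cKO members, at 260 against 381 CPM, a log2 ratio of -0.55 (-0.63 to -0.47). The ratio was -0.66 within cluster 15, -0.56 without the 14 cells of cluster 20 and -0.62 without called doublets. Among members with Xist alone it was -0.96, and it was -0.64 among such members within cluster 15. Acta2 also differed between cells of the WT library, at 335 CPM in its Y-only members and 510 CPM in its Xist-only members, against 262 CPM in the Xist-only members of PADI4 cKO. Of the Xist-only WT members, 7 carried Chrm3, which in WT members was found only in cluster 20. Within cluster 15 Acta2 stood at 438 CPM in the Xist-only WT members and 441 CPM in all WT members, so the gap was not seen there. In all other droplets the ratio had the other sign, 0.76, but the share of cells with Acta2 was 1.70% in WT and 1.06% in PADI4 cKO, and 1 cell held 163 of 481 UMIs in WT and 1 held 200 of 830 in PADI4 cKO. The share of members with Acta2 was 41.1% in WT and 27.9% in PADI4 cKO at 5000 UMIs per droplet. Acta2 helped to choose the members in both libraries, and the difference compares 2 libraries.

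Tagln had a log2 ratio of 0.14 over all members, 0.01 within cluster 15, 0.02 among members with Xist alone and -0.16 (-0.22 to -0.11) among such members within cluster 15, where it had the same sign as Acta2. Olfml2b had the opposite sign to Acta2, with 0.48 (0.29 to 0.66) over all members, 0.38 within cluster 15 and 0.68 among members with Xist alone. Fgf5 had -0.29 (-0.56 to -0.03), and -0.08 (-0.48 to 0.34) among members with Xist alone. Krt18 had -0.87 over all members, -1.49 among members with Xist alone and -0.17 without the cells of cluster 20, which held 47.9% of its UMIs in WT. Among members with Xist alone within cluster 15, Krt18 had 0.39 (-0.82 to 2.04), from 6 UMIs in WT and 28 in PADI4 cKO.

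The 5 genes highest in PADI4 cKO members were Gm10260 (3.58), Nrg1 (2.68), Hmga1b (2.19), Gm21887 (2.15) and Krt35 (1.88) on the log2 scale. Gm10260, Hmga1b and Gm21887 differed as much in all other droplets (3.56, 2.35 and 1.98). Nrg1, an ErbB receptor ligand, had 17 UMIs in WT members and 96 in PADI4 cKO members. Only 11 PADI4 cKO cells carried it, of which 1 held 46 of the UMIs. Its ratio was 1.5 (0.68 to 2.43) without called doublets, which leaves 43 UMIs in PADI4 cKO, and -0.55 in the other droplets. Krt35, a hair shaft keratin, differed by 0.44 once called doublets were left out.

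The 5 lowest were Chrm3 (-7.61), Ntrk3 (-6.65), Krt6a (-5.22), Meis2 (-3.46) and Ly6d (-3.39). Chrm3 and Ntrk3 came from the 10 WT cells of cluster 20 alone, and 91.9% of the Meis2 UMIs in WT members did, with a Meis2 ratio of 0.20 within cluster 15. For Krt6a, 1 WT cell held 130 of 152 UMIs. Ly6d, a differentiation marker, had 226 and 18 UMIs, and differed by -1.38 among members with Xist alone and by -1.66 in the other droplets.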

How the data were processed

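Single-cell RNA libraries were made with the 10x Genomics 3′ kit from tdTomato-positive keratinocytes of P1 back skin, 1 library per genotype. The deposited files hold raw UMI counts per gene and droplet, which the authors made with Cell Ranger 7.1.0, as the matrix headers state; the submitters' processing notes name mm10 and Scanpy. The annotation and the counting of introns are not given in the sources used here. The files precede the CellBender and cell filters of the study's methods, so RNA outside cells remains in the counts.

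Droplets were filtered and members chosen by the stated limits, and UMIs were summed per library and expressed as CPM. Log2 ratios had 0.5 UMI added to each sum. Intervals at 95% are exact (binomial for shares, Clopper-Pearson; conditional binomial for ratios) and cover counting error only. Genes were compared from a mean of 10 CPM in both libraries, or from 100 UMIs over the members of both libraries. No test was run, since each genotype has 1 library and the members were chosen by a readout of the same cells. Members, lists and tests were chosen with earlier results of these data known. Genes named are the genes of the rule, the Padi genes, the 20 highest and 10 lowest ratios (the smaller of the 2 libraries' ratios), fixed lists, the 5 highest and 5 lowest ratios between libraries and the 10 genes most like the contractile sum; other examples were chosen after their values were seen. The result of 1 fixed list is not reported here.

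Droplets were clustered with Leiden at resolution 1 after S and G2/M scores were regressed out, without the genes of the rule. Doublets were called with Scrublet but kept. Its own limit called 0.0115% of WT droplets, so the PADI4 cKO limit of 0.194 was used for both. The scripts were tested on simulated data. Python 3.11.15, numpy 2.4.6, scipy 1.17.1, pandas 2.3.3, scanpy 1.11.5, igraph 0.11.9 and leidenalg 0.10.2 were used. Gene positions are from GENCODE vM21 and upstream sequences from RefSeq GRCm38.p6. Alternatives covered the limits of the rule, filters, doublets, thinning, RNA outside cells, sex of the cells, clustering and thresholds.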

Additional observations from a re-analysis of the deposited data

Results flagged for a closer look

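For 7 genes named here, the log2 ratio of members over other droplets had opposite signs in the libraries, with intervals that did not include 0 in either library. Over all 8907 genes compared, 21 did so. The difference between the libraries was not tested, since each genotype has 1 library. Nrg1 had -1.60 in WT and 1.63 in PADI4 cKO, from 17 and 96 UMIs in members, of which 1 PADI4 cKO cell held 46. Krt6a had 2.59 and -3.12, and 1 WT cell held 130 of its 152 UMIs in WT members. Krt75 had -0.32 and 0.25. The remaining differences were small. Krt5, a gene of the rule, had -0.10 and 0.10, Xist had 0.11 and -0.20, Cux1 had 0.037 and -0.093, and Cdk1 had 0.11 and -0.10.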

How the results depend on the processing

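Of 134 alternatives, 99 left a value within its counting interval or a count within 1.5 times, and 35 moved it. A reversed direction was looked for only in the Krt8 and Krt18 ratio, with 14 alternatives in each library, and 0 reversed it. The other results are shares and counts, which have no direction to reverse. The share of members was 5.80% in WT and 5.45% in PADI4 cKO with a limit of 3 contractile UMIs, 3.78% and 3.40% with 10, 4.33% and 3.90% with no collagen UMI, and 2.66% and 2.71% with 30 keratin UMIs. It was 5.71% in WT among cells with Xist alone. The combined Krt8 and Krt18 log2 ratio, 2.49 in WT and 2.86 in PADI4 cKO, was 1.96 and 2.29 with 30 keratin UMIs, 2.83 in WT with empty-droplet UMIs subtracted, 3.14 in PADI4 cKO among cells with Xist alone and 2.58 in PADI4 cKO after thinning. Genes higher and lower in members numbered 218 and 96 with a minimum of 50 CPM and 120 and 71 at 4-fold. The share of members in the leading cluster was 66.3% with 3 and 79.4% with 10 contractile UMIs, 64.6% with 30 keratin UMIs, 76.7% without doublets, 94.0% at resolution 0.5, 49.1% at resolution 2 and 63.6% without cell cycle correction. Between libraries, genes higher in PADI4 cKO numbered 316 among cells with Xist alone (with 280 lower there), 222 from 50 UMIs and 15 from 500 UMIs. Genes lower numbered 171 after thinning, 506 from 50 UMIs and 41 from 500 UMIs. Of alternatives chosen after seeing the data, counting the leading cluster alone gave shares of 3.51% and 3.21% and 186 genes lower in PADI4 cKO, and leaving out the cluster that holds Chrm3 gave a Krt8 and Krt18 ratio of 1.93 in WT. The causes of these moves were not tested. RNA outside cells was estimated at 12.5% of the UMIs of WT members and 2.30% of those of PADI4 cKO members, against 11.9% and 33.2% in the other droplets. The estimate in members rests on 2 hemoglobin UMIs in WT and 3 in PADI4 cKO and is weak. The estimates in the other droplets are too high for Tagln in both libraries. Tagln stood at 141 CPM in WT and 129 CPM in PADI4 cKO in the near-empty droplets. In the other droplets it stood at only 12.5 and 10.5 CPM, less than shares of 11.9% and 33.2% would bring from outside cells alone. These shares are therefore not a measure of RNA outside cells in the other droplets. No paired analysis was possible because each genotype has 1 library.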

Other observations

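Droplets that passed the contractile limit but not the keratin limit, 42 in WT and 13 in PADI4 cKO, resembled the members in several genes. They were shallower than members, at a median of 7667 and 9774 UMIs. Myl9 stood at 739 and 766 CPM in them, Tpm1 at 1820 and 1396 CPM, Krt19 at 94.5 and 159 CPM and Krt15 at 1898 and 1737 CPM. Slit3 stood at 1356 CPM in WT and 554 CPM in PADI4 cKO, and Fgf5 at 83.4 and 7.59 CPM.

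Members with Acta2 differed from members without it in the same direction in both libraries. Tagln stood at 2392 and 2787 CPM with Acta2 and at 1046 and 1341 CPM without it, Fgf5 at 47.9 and 44.5 CPM against 21.5 and 18.1 CPM, and Cdo1 at 78.8 and 75.8 CPM against 29.2 and 38.3 CPM. These splits use Acta2, a gene of the rule, and are descriptions.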
